A study of Mus musculus with 7 samples.

Results

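Restriction factors are proteins with which a cell blocks a virus without help from other cells, and 8 of their genes were followed here in naive mouse CD8 T cells that had lost the tyrosine kinase Lck: Ifitm1, Ifitm2, Ifitm3, Bst2, Rsad2, Isg20, Samhd1 and Apobec3. They were taken by gene name from the non-control rows of the arrays, which hold 34797 gene names on 55681 probes; the 8 genes have 13 probes. Of the 8, 6 were measured above background and entered the comparison of 18231 genes, and Ifitm1 and Ifitm2 stayed at background throughout (no spot well above it). All 6 were well above background on all 7 arrays, so none of them entered through 1 group alone.

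Most of these genes are induced by interferons. Those of type I act through the receptor Ifnar and factors that include Stat2 and Irf9 on a DNA motif called the interferon-stimulated response element. Their products act at successive steps of a viral life cycle: the IFITM membrane proteins hinder fusion of enveloped viruses with endosomes, Samhd1 depletes the deoxynucleotides needed for reverse transcription, Apobec3 deaminates cytidines in retroviral DNA, Isg20 degrades RNA as an exonuclease, Rsad2 (viperin) converts CTP into a chain terminator of viral polymerases, and Bst2 (tetherin) holds budding particles at the cell surface. Lck is the kinase that starts signalling from the T cell receptor.

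The WT group held 3 samples of genotype OT-1het, Rag-/-, and the other group 4 samples of genotype OT-1het, Rag-/-, Lck-/-, in which a knocked-in Lck had been switched off by 7 days on a diet free of doxycycline; this group is called Lck-off. Both groups thus carried the OT-1 transgenic receptor, which recognises an ovalbumin peptide, on a Rag-deficient background that makes no other receptors. Cells came from lymph nodes, unstimulated, sorted for CD8b and low CD44, and each sample was read on 1 single-colour array. The samples are biological replicates according to the series; the number of animals behind each, their age, the promoter of the inducible Lck and what the WT mice ate are not stated in the sources at hand, so p-values measure the spread between these samples. No mice of the Lck-/- genotype still on doxycycline were among the samples, so genotype, diet and loss of Lck cannot be told apart. In bulk RNA, more cells of a type and more RNA per cell cannot be told apart either.

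Levels are log2 intensities relative to the 75th percentile of the array, so a level of 0 is the intensity that 75% of the spots stay below; differences are Lck-off minus WT on that log2 scale, and ± gives 1 SD, with n = 3 for WT and n = 4 for Lck-off. All 7 arrays lay on 1 slide, where row 1 held WT replicate 3 with Lck-off replicates 2 and 3 and row 2 the rest. The share of probes well above background was 46% to 48.6% on the arrays of row 1 and 42.5% to 45.1% on those of row 2. The Lck probe read 8.98 to 9.02 in the WT samples and 8.52 to 8.83 in the Lck-off samples, a difference of -0.37 (adjusted p = 0.0493, limma); whether it lies in the disrupted part of the native gene is not known here, so it is no test of the labels. Of the 9 CD8 T cell identity genes (such as Cd3e, Cd8a and Cd8b1) all 9 were measured, with a median difference of 0.01, 1 called higher (Lat) and 0 lower. Every Lck-off array was above every WT array for 3 of the 9, against 9.80% of all genes: Lat (0.27), Cd8a (0.28) and Cd8b1 (0.25). Cd8a and Cd8b1 were not called (adjusted p = 0.146 and 0.065, limma). Xist RNA was at -5.70 on WT replicate 1 and -5.52 on Lck-off replicate 1 and between 0.40 and 0.89 on the other 5 arrays, so both groups were mixed in this respect. With 7 arrays, precision is limited throughout.

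The promoters of the 8 genes were read for a motif that part of the set holds. All 8 genes matched a RefSeq promoter window on GRCm38.p6, from 250 bases before to 50 after each annotated start, in 11 windows. Both strands were searched for the core of the interferon-stimulated response element, spelled GAAA, any 2 bases, then GAAA, and 5 of the 8 genes held it. Over all 27025 genes of the RefSeq set, 3.99% held it (3.44% of 32851 windows), and 0.266% held it at least 2 times, as Bst2 and Ifitm3 did. The 60 bases around the matches are printed on the gene's own strand, 5′ to 3′, with matched bases in capitals; a match on the opposite strand reads TTTC, any 2 bases, TTTC.
Ifitm2: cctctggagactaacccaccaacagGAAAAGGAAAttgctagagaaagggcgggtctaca
Ifitm3: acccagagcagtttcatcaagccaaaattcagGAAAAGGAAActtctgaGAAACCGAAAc
Bst2: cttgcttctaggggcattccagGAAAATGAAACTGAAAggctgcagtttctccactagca
Rsad2: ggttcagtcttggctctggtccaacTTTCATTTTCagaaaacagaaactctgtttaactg
Apobec3: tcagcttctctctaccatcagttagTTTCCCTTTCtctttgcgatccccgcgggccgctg

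These stretches lie at chr7:140955973-140956032 (Ifitm2), chr7:141010715-141010774 (Ifitm3), chr8:71537565-71537624 (Bst2) and chr12:26456538-26456597 (Rsad2), all on the minus strand, and at chr15:79892243-79892302 on the plus strand (Apobec3), on GRCm38.p6. The Bst2 promoter held a pair of overlapping matches at bases -130 to -121 and -124 to -115 before the start, which together read as 3 GAAA blocks. Ifitm3 was the one gene of the 5 with its matches after the start, at bases 3 to 12 and 20 to 29. The match lay at -46 to -37 in Ifitm2, and on the opposite strand at -120 to -111 in Rsad2 and -140 to -131 in Apobec3. No match was found in the windows of Ifitm1, Samhd1 or Isg20, the last with 3 annotated starts. The core of the gamma-activated site, TTCNNNGAA, was found in Ifitm3, Bst2, Isg20 and Samhd1, against 9.55% of all genes. These are letter matches, and binding was not measured.

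Lck-off cells held more RNA of 4 of the 8 genes: Rsad2 7.10-fold, Isg20 4.42-fold, Bst2 3.33-fold and Samhd1 1.53-fold. Each passed limma's moderated test at an adjusted p under 0.05 over all 18231 genes, each had every Lck-off array above every WT array, and 0 of the 8 passed in the other direction, in which 4.57% of all genes did. For comparison, 3.80% of all genes tested were called higher, 1.25% were called at least 2-fold higher, as were 3 of the 8 genes here, and 9.80% had no overlap with the Lck-off arrays higher, as did 5 of the 8; the median difference of all genes was -0.01. The number of genes called in either direction, 1527 (8.38%), moved by over 1.5 times when WT replicate 2 (960), WT replicate 3 (984), Lck-off replicate 3 (964) or Lck-off replicate 4 (968) was left out, and the 693 called higher fell to 449 without Lck-off replicate 3. The 8 genes were chosen with results of these data known, so these shares are a description.

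Bst2 and Rsad2 act late in infection. The Bst2 probe, at chr8:74058603-74058662 on mm9, read 4.86, 5.25 and 4.70 in WT replicates 1 to 3 and 6.46, 6.60, 6.71 and 6.91 in Lck-off replicates 1 to 4. The lowest Lck-off array stood 1.21 above the highest WT array, a gap several times the SD of either group (4.94 ± 0.28 in WT, 6.67 ± 0.19 in Lck-off). The difference was 1.73 (SE 0.16, 95% confidence interval 1.36 to 2.10, adjusted p = 0.00116 by limma). Of the 35 ways to split the arrays 3 against 4, the observed split alone gave a difference as large, an exact two-sided permutation p of 0.0286, which is the smallest this design allows.

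Rsad2, which had the largest difference of the 6 measured genes, read -0.64, 0.78 and 0.05 in the WT samples and 3.07, 2.40, 2.94 and 3.16 in the Lck-off samples. The WT arrays were spread more widely (0.06 ± 0.71) than the Lck-off arrays (2.89 ± 0.34), and the groups were still 1.62 apart at their nearest arrays. The difference was 2.83 (SE 0.34, interval 2.04 to 3.62, adjusted p = 0.00294 by limma, exact permutation p 0.0286), or 7.10-fold with an interval from 4.11 to 12.3. Rsad2 was not called with the replicate number as a block (2.74, adjusted p = 0.0631 by limma). Its probe lies at chr12:27127859-27127918 on mm9. Cmpk2, a nucleotide kinase gene beside Rsad2 on the chromosome (35.1 kb between the probes on mm9), rose by 2.22 (adjusted p = 0.0016).

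Isg20, the exonuclease, was read by a pair of probes on the same transcript record. The brighter, at chr7:86065136-86065195 on mm9, read 3.54, 4.16 and 3.75 in the WT samples and 5.88, 5.83, 5.92 and 6.22 in the Lck-off samples. The Lck-off arrays had an SD of 0.18 and lay at least 1.67 above the highest WT array. The difference was 2.15 (SE 0.17, interval 1.76 to 2.53, adjusted p = 0.000682 by limma, exact permutation p 0.0286), the smallest adjusted p of the 6. The other probe gave 2.21 (SE 0.19), from 2.57, 3.37 and 2.99 in the WT samples to 5.07, 5.07, 5.14 and 5.46 in the Lck-off samples. Bst2, Rsad2 and Isg20 ordered some arrays alike: WT replicate 2 was the highest WT array and Lck-off replicate 4 the highest Lck-off array for all 3.

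**Figure D1:**
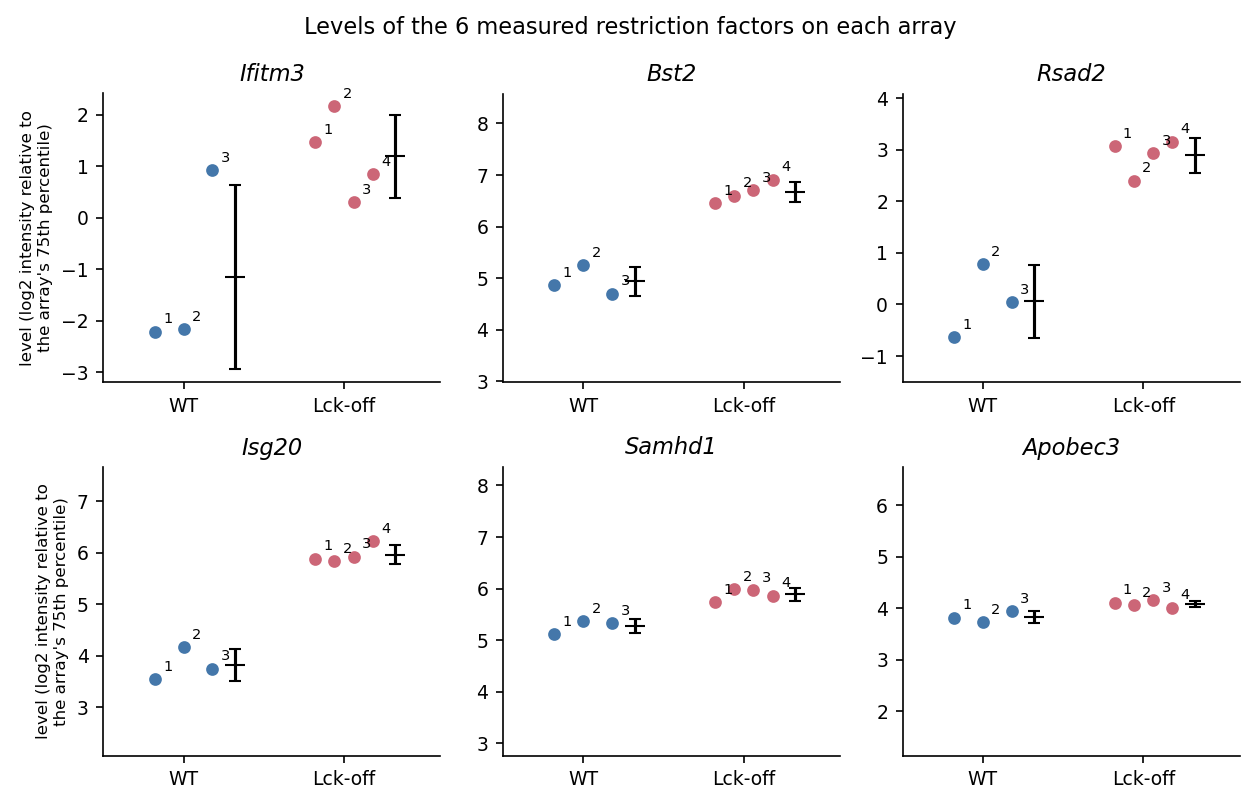
Level of each of the 6 measured genes on each array (log2 intensity relative to the array's 75th percentile; every panel spans the same number of log2 units). Numbered points are the 3 WT and 4 Lck-off replicates and black bars are mean ± SD: Bst2, Rsad2 and Isg20 are separated by over 1 log2 unit, Samhd1 by 0.36 and Apobec3 by 0.06, and for Ifitm3 WT replicate 3 (0.92) lies among the Lck-off arrays.

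Samhd1 acts early in infection, on the deoxynucleotide pool. Its brightest probe read 5.11, 5.37 and 5.33 in the WT samples and 5.73, 5.99, 5.97 and 5.86 in the Lck-off samples, 5.27 ± 0.14 against 5.89 ± 0.12. The groups did not overlap, with a gap of 0.36. The difference was 0.62 (SE 0.10, interval 0.38 to 0.85, adjusted p = 0.0104 by limma, exact permutation p 0.0286), and it was not called with arrays scaled to the median (0.60, adjusted p = 0.0677) or with dim probes kept (0.62, adjusted p = 0.0581). With the replicate number as a block it was not called either (0.63, adjusted p = 0.0614 by limma).

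The other Samhd1 probes gave larger differences. A probe that spans 1354 bases of the genome (chr2:156930644-156931997 on mm9), more than its own 60 bases, gave 0.81 (SE 0.10). It read 2.77, 3.03 and 2.86 in the WT samples and 3.56, 3.70, 3.73 and 3.82 in the Lck-off samples. A dim probe well above background on 2 of 3 WT and all 4 Lck-off arrays gave 1.12 (SE 0.20). All 3 were called in the fit over 25578 probes, in which 8 of the 10 probes tested for the 6 genes were called higher, against 885 (3.46%) of all probes.

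Apobec3, the cytidine deaminase gene, was at the edge of what these arrays resolve. Its brightest probe read 3.82, 3.73 and 3.95 in the WT samples and 4.11, 4.06, 4.16 and 4.01 in the Lck-off samples. Each Lck-off array was above each WT array, by as little as 0.06. The difference was 0.25 (SE 0.08, interval 0.07 to 0.44) and was not called (adjusted p = 0.114 by limma, exact permutation p 0.0286); it was called in the fit of the authors' deposited table (0.27, adjusted p = 0.0369), with all kept probes averaged (0.32, adjusted p = 0.0324) and with trended and robust moderation (0.25, adjusted p = 0.0486).

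The second Apobec3 probe read 0.04, -0.04 and -0.11 in the WT samples and 0.36, 0.23, 0.47 and 0.38 in the Lck-off samples, a difference of 0.39 (SE 0.08) that was called over all probes (adjusted p = 0.0333). A further probe carries the array name Gm20117, which the RefSeq table now lists as a synonym of Apobec3; it is no member by the name rule and is counted nowhere above. It read 2.34, 2.00 and 1.96 in the WT samples and 2.77, 2.89, 3.02 and 3.03 in the Lck-off samples, a difference of 0.83 (SE 0.12). By limma the adjusted p was 0.00721 over all probes and 0.00593 over all genes. In the fit over all probes, the intervals of the brightest Apobec3 probe (0.06 to 0.45) and of the Gm20117 probe (0.55 to 1.11) do not meet. That of the second Apobec3 probe (0.20 to 0.59) meets both. The size of the Apobec3 difference thus varied with the probe, and the difference between probes was not tested. The first 30 bases of each 60-base probe are printed because they say which stretch of RNA each value comes from.
A_52_P645410 (chr15:79725905-79725964): aaagataccttcttgtgctatgaagtgact
A_65_P17700 (chr15:79738107-79738166): cccctcaccctcccgccatcaataggtact
A_52_P308875, Gm20117 (chr15:79746081-79746140): ctgattttaattgggttcagaagactggat

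All 3 lie on the plus strand of mm9 in the order given. The called Apobec3 probe lies nearest the start of the gene and the brightest lies between it and the Gm20117 probe. No gene annotation on mm9 was used here, so exons and untranslated regions are not assigned.

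**Figure D2:**
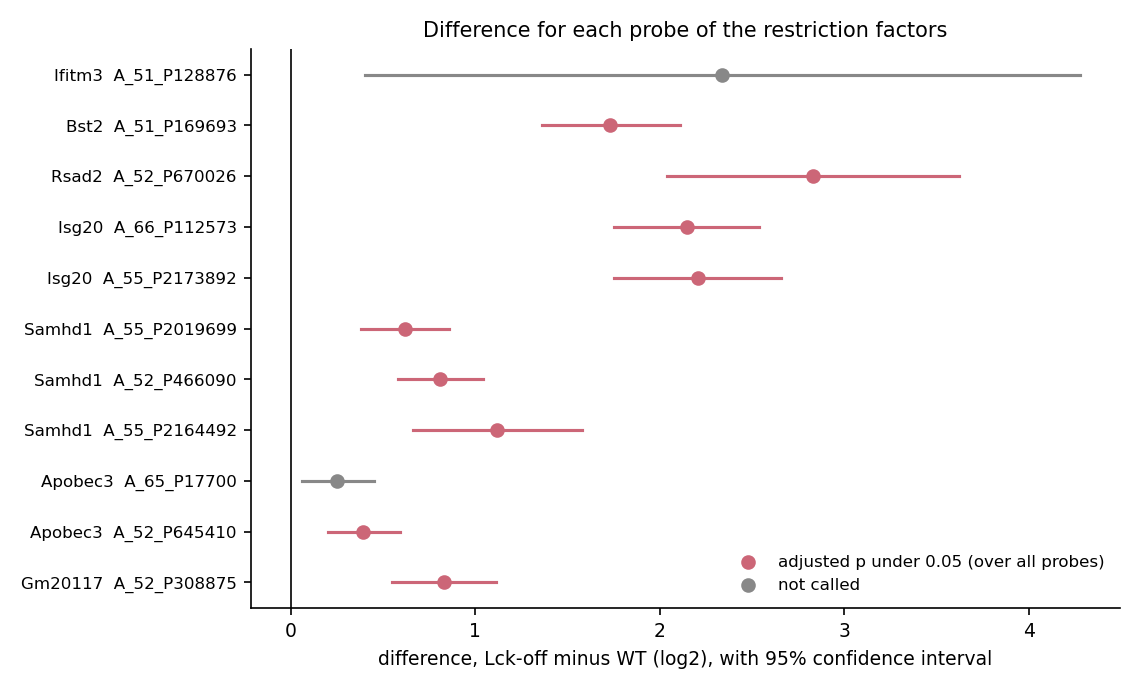
Difference (Lck-off minus WT, log2) with its 95% confidence interval for the 10 probes tested and the Gm20117 probe; red marks an adjusted p under 0.05 over all probes. The 3 Samhd1 probes give 0.62, 0.81 and 1.12, the Isg20 probes 2.15 and 2.21, and Ifitm3 has the widest interval, 0.40 to 4.28.

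Ifitm3, which traps viruses in endosomes, separated the arrays in another way than by group. It read -2.21, -2.16 and 0.92 in WT replicates 1 to 3 and 1.46, 2.16, 0.30 and 0.84 in Lck-off replicates 1 to 4. WT replicates 1 and 2 were low, and WT replicate 3 stood above Lck-off replicates 3 and 4, so the groups overlapped. The difference of 2.34 (SE 0.82, interval 0.40 to 4.28) was not called (adjusted p = 0.153 by limma), and 3 of the 35 splits gave one as large (exact permutation p 0.0857). Without WT replicate 3 it was 3.37 and was called (adjusted p = 0.0168). It was called in none of the 6 fits that left out another array.

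The Ifitm3 probe is printed as 10 spots on each array, and they show how far the arrays differed beyond the error of a spot. The probe lies at chr7:148195591-148195650 on the minus strand of mm9, and its first 30 bases are shown.
Ifitm3 probe: cttaacgctcaaaaccttcacacttaatag

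All 10 spots were well above background on all 7 arrays, with an SD within an array of 0.06 to 0.43. The median intensity of the spots was 45.6, 48.6 and 450 in the WT samples and 628, 987, 300 and 413 in the Lck-off samples. The lowest spot on WT replicate 3, at 0.17, stood above the highest on WT replicates 1 and 2, at -1.77 and -1.78. WT replicate 3 exceeded the mean of WT replicates 1 and 2 by 3.11, which ranked 3 among the 16054 genes well above background on all 7 arrays; from the 5th to the 95th percentile this gap ran from -0.46 to 0.35. The other measured genes had gaps of 0.18 (Apobec3), 0.09 (Samhd1), -0.02 (Rsad2), -0.10 (Isg20) and -0.35 (Bst2), so WT replicate 3 stood apart for Ifitm3 among the 6.

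**Figure D3:**
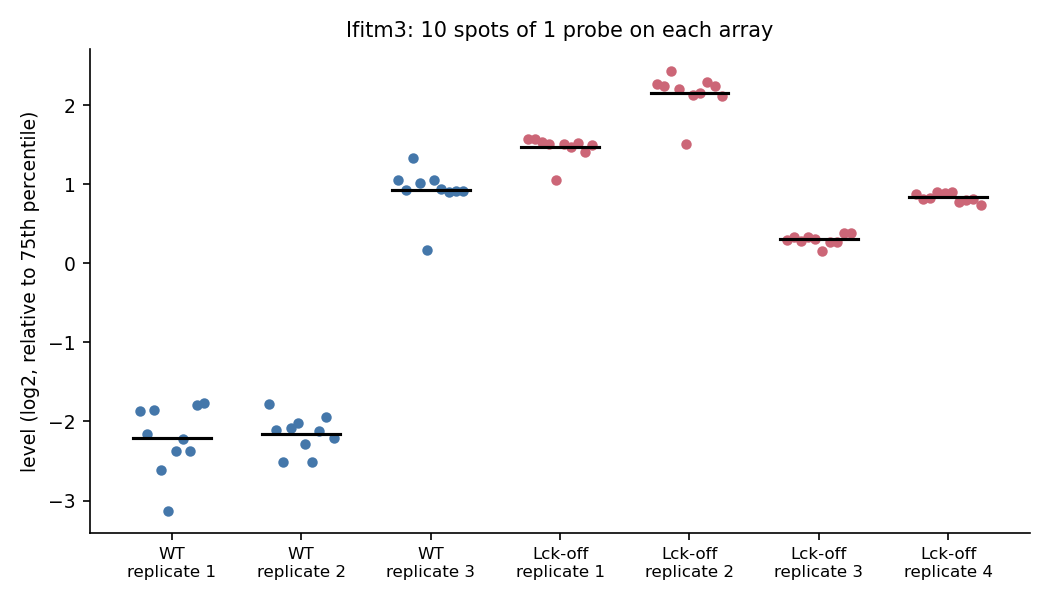
Level of each of the 10 Ifitm3 spots on each array (log2 intensity relative to the array's 75th percentile; black line, mean of the spots). The spots of WT replicates 1 and 2 lie between -3.13 and -1.77 and those of WT replicate 3 between 0.17 and 1.33, within the range of the Lck-off arrays.

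The Ifitm3 difference varied with the slide row. WT replicate 3 was the only WT array of row 1, so for WT the row and the array cannot be told apart. The Lck-off means were 1.23 in row 1 and 1.15 in row 2, and row 1 held both the highest and the lowest Lck-off array. Within row 1 (1 WT and 2 Lck-off arrays) the Ifitm3 difference was 0.31, and within row 2 (2 and 2) it was 3.34; with row as a block it was 2.12 (adjusted p = 0.171). For the other genes the values within row 1 and row 2 were 1.95 and 1.63 for Bst2, 2.62 and 3.04 for Rsad2, 2.13 and 2.20 for Isg20, 0.65 and 0.55 for Samhd1, and 0.16 and 0.28 for Apobec3. With row as a block the same 4 genes were called, at 1.76 (Bst2), 2.87 (Rsad2), 2.17 (Isg20) and 0.59 (Samhd1). In limma fits of 1 row alone these calls were mostly lost: in row 1, with 3 arrays, Isg20 was called (adjusted p = 0.044) and Bst2 (0.0524), Rsad2 (0.0735) and Samhd1 (0.23) were not, and in row 2, with 4 arrays, the adjusted p was 0.107 for Isg20, 0.118 for Bst2, 0.136 for Rsad2 and 0.214 for Samhd1.

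Ifitm1 and Ifitm2, the close relatives of Ifitm3 in the same gene cluster, had no spot flagged well above background, so no fold is given. The Ifitm1 probes, which share a run of 54 bases and are not independent, had processed intensities of 3.22 to 7.30 in the WT samples and 4.35 to 15.3 in the Lck-off samples, where Lck-off replicate 2 was highest on both. Ifitm2 had 3.31 to 4.22 in the WT samples and 4.68 to 12.3 in the Lck-off samples. The Ifitm3 probe shares no run longer than 6 bases with the probe of either gene.

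Genes around the members were read through lists of the same pathways. Of the 23 measured genes for other restriction factors and antiviral effectors, 18 were called higher and 0 lower, with a median of 0.86. Mx1, a nuclear GTPase that blocks influenza viruses, went from -0.05 ± 0.52 to 4.47 ± 0.26, a difference of 4.52 (adjusted p = 0.000305). Its relative Mx2 rose by 3.11, and Ifit2 and Ifit3, which belong to a family of antiviral RNA-binding proteins, by 1.89 and 3.68 (adjusted p at most 0.00106). Those not called included Trim25 (0.37), Serinc3 (0.15), Zc3hav1 (0.13) and Serinc5 (-0.20). Serinc3 and Serinc5 are membrane proteins that lower the infectivity of retroviral particles.

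Of the 12 interferon receptor, kinase and transcription factor genes, 5 were called higher and 0 lower, with a median of 0.22. The called ones included Irf7 (1.88), Stat2 (0.96), Irf9 (0.67) and Ifngr1 (0.35, adjusted p = 0.0312). Ifnar1 (0.08), Ifnar2 (0.20), Jak1 (-0.07) and Tyk2 (-0.13), which carry the signal of type I interferons at the membrane, were not called.

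The machinery that each factor works with or against was read through 3 further lists, to be set beside the 8.38% of all genes called in either direction. Of the 5 measured genes of the Ifitm family and its partners 0 were called, with a median of -0.20: Ifitm7 was at -0.04, Vapa at -0.03, the Ifitm cofactor Zmpste24 at -0.20, the palmitoyltransferase Zdhhc20 at -0.28, and the ubiquitin ligase Nedd4, which targets IFITM proteins for turnover, at -0.53 (adjusted p = 0.0537). Of 11 genes for deoxynucleotide supply and the kinases of Samhd1, 0 were called higher and 1 lower, with a median of -0.12; this was Dctpp1, a dCTP pyrophosphatase, which fell by 0.39 (adjusted p = 0.0237), while thymidine kinase Tk1 was at -1.01 (adjusted p = 0.0582). Cdk1 and its cyclin Ccna2, of the same list, stayed at background. Of 10 genes of the ESCRT machinery, with which many enveloped viruses bud, 0 were called (median 0.04).

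Among 7 exonucleases related to Isg20 the median was 0.03 and 1 was called higher, Trex1, a DNA exonuclease of the cytosol, at 0.90 (adjusted p = 0.00498). Aen, the relative whose probe lies 11.8 kb from that of Isg20, was at 0.05 (adjusted p = 0.828). Of the APOBEC deaminases beside Apobec3, Apobec1 was measured, at 0.59 (adjusted p = 0.0729), and Apobec2 and Apobec4 stayed at background.

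**Figure D4:**
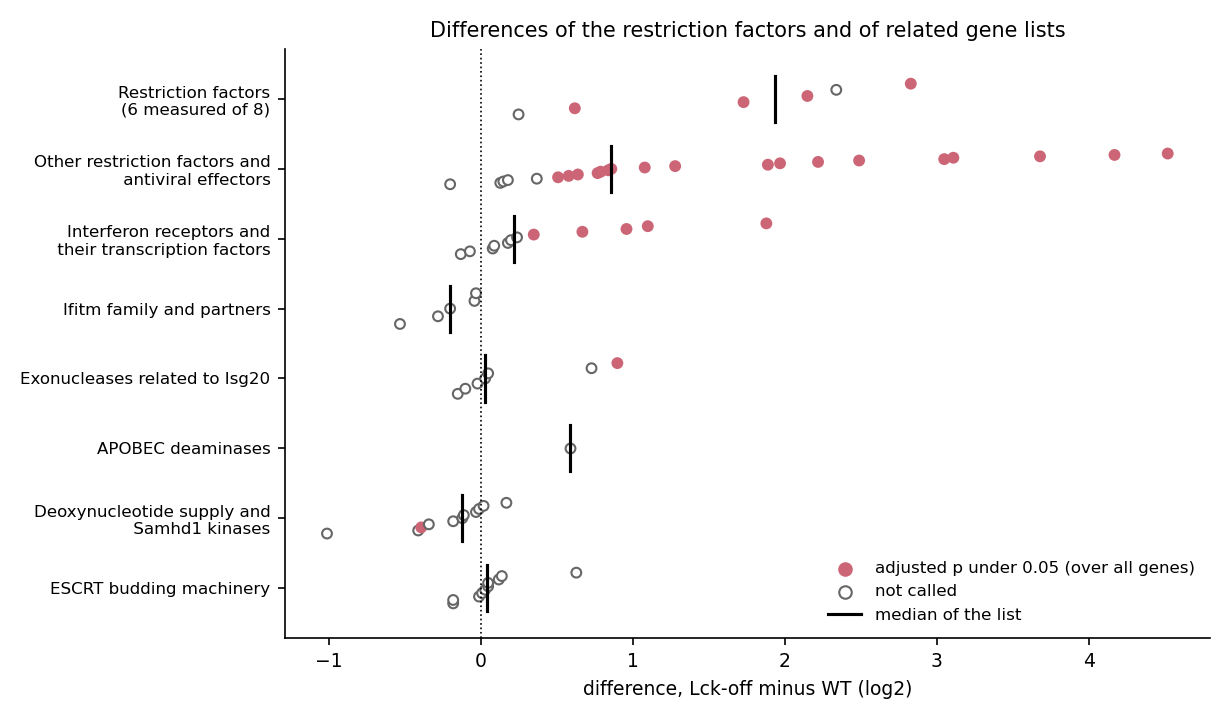
Difference (Lck-off minus WT, log2) of each measured gene in the restriction factor set and in 7 related lists; filled points are called over all genes and black lines are list medians. Of the other restriction factors and antiviral effectors 18 of 23 are called higher (median 0.86), and of the ESCRT genes 0 of 10 (median 0.04).

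Markers of other cells moved in part with the group. Of 14 macrophage, monocyte and neutrophil markers on the array 8 were measured, with a median difference of 0.62 and 1 called higher (C1qb); the log2 of their summed level ran from 5.38 to 5.87 in the WT samples and from 5.68 to 5.93 in the Lck-off samples. Of 11 dendritic cell markers 8 were measured, with a median of 0.87 and 1 called higher (Tcf4); their summed level ran from 7.94 to 8.06 in the WT samples and 7.99 to 8.30 in the Lck-off samples. These sums rest largely on Itgam (5.22 to 5.75) and Siglech (7.92 to 8.24), which had differences of 0.14 and 0.10. Siglech had a WT mean of 8, beside 8.06 for the T cell gene Cd3e. Whether its probe reads dendritic cells here was not tested. The median level of the macrophage list was -2.12, -1.53 and -2.08 on the WT arrays against -1.29, -0.63, -1.10 and -1.76 on the Lck-off arrays, and that of the dendritic cell list -1.27, -0.49 and -1.04 against 0.15, 0.62, -0.20 and -0.53. Both medians were highest on Lck-off replicate 2, the array with the highest Ifitm3 level, and lowest on WT replicate 1. Within WT they did not follow Ifitm3. Both medians were highest on WT replicate 2, where Ifitm3 read -2.16, and Ifitm3 was highest on WT replicate 3, at 0.92. Among markers not called, the largest differences by limma were C1qc at 1.75 (adjusted p = 0.0932), H2-Ab1 at 1.40 (adjusted p = 0.223) and C1qa at 1.38 (adjusted p = 0.0734). C1qa and C1qc were well above background on 1 of 3 WT and all 4 Lck-off arrays. They thus passed the filter through the Lck-off group, and the macrophage medians include them. Cd68 (0.31), Zbtb46 (0.21) and Csf1r (0.20) differed less, and Flt3 was lower in Lck-off (-0.69). Clec9a was at background on every array. Of 7 B cell markers 3 were measured and 0 called, with Cd79b at 3.52 to 3.82 over the 7 arrays and differences of -0.08 (Cd79b), -0.02 (Cd79a) and 0.24 (Cd22, every Lck-off array above every WT array, adjusted p = 0.183); the other 4, Ms4a1 and Pax5 among them, were at background on every array. Bst2, Ifitm3 and Samhd1 are also expressed by such cells. The part of these markers in the differences above was not tested.

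The genes whose levels followed each member most closely over the 7 arrays were found by Pearson's r among genes well above background on all of them, as a description in which the group difference itself enters. They were Slfn1 and Irf7 for Rsad2 (r = 0.9985 and 0.9978), Tgtp1 and H2-T9 for Isg20 (0.9995 and 0.9985), Gm4902 and 9030619P08Rik for Bst2 (0.9975 and 0.9973), and Nsun4 and Pdlim4 for Samhd1 (0.9910 each). Apobec3 was followed by Nfya (0.9821) and by the unnamed probe A_55_P2184508 (0.9724), and Ifitm3 by Ccdc93 (0.9803) and Gtpbp2 (0.9783). The differences of the last pair were 0.18 and 0.27, and neither was called. All the genes named here were picked as the closest among 16054. With 7 arrays, picking from so many genes raises r by itself.

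Within 100 kb of a member's probe on mm9 lay 42 other measured gene names, of which 6 (14.3%) were called, 4 higher and 2 lower, beside 8.38% of all genes. The 42, the 6 and the 4 all include Gm20117, now listed as a synonym of Apobec3, so the share counts that member as its own neighbour. Beside Cmpk2 and Gm20117, those called higher were Rbl1, 38.9 kb from Samhd1 (0.58, adjusted p = 0.02), and Cbx7, 16.6 kb from Apobec3 (0.39, adjusted p = 0.0388). Of the 16 measured neighbours of Bst2, 0 were called higher and 1 lower, an unnamed probe at -1.12. In the Ifitm cluster Athl1 fell by 0.32 (adjusted p = 0.0404).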

How the data were processed

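Processed intensities of arrays of design 028005 came from Feature Extraction 10.7.3.1, and probes are placed on mm9, per the file headers: the authors subtracted background and detrended within each array, and left the mean and background intensities as read. Flags and spot types, other columns used, are from the same software, per the file headers. The values of the deposited table lie on a log2 scale, judged from the values themselves; limma is named in the submitters' processing notes, without a version.

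Here, log2 processed intensities were set relative to each array's 75th percentile over non-control spots. Non-uniform spots were dropped, spots of a probe averaged, probes kept that were well above background on 3 or more of the 7 arrays, and the brightest probe taken for each gene. Groups were compared with limma 3.58.1 (R 4.3.3), moderated, two-sided, with Benjamini-Hochberg adjustment over all genes at 0.05, and with the exact permutation test over 35 splits. The fit was also run on simulated data, and the outcome is not reported here.

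Named genes were all members, up to 4 called genes of smallest p in each list, and the 2 genes most like each measured member; others were named after their values were seen, and some list genes are not reported here by name. Members and lists were chosen with earlier results of these data known. Promoters came from a RefSeq table. Alternatives were other background correction, scalings, filters, probe rules and moderation, the deposited table, blocks, slide rows, and each array left out.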

Additional observations from a re-analysis of the deposited data

How the results depend on the processing

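Every difference of the 6 measured genes kept its direction under all alternatives run. Rsad2, Isg20, Bst2 and Samhd1 were called in each of the 7 fits that left out 1 array (2.48 to 3.19, 2.01 to 2.32, 1.62 to 1.89 and 0.54 to 0.67); Ifitm3 ran from 1.81 to 3.37 and was called only in the fit without WT replicate 3, and Apobec3 ran from 0.20 to 0.31 and was never called. These fits called 960 to 1405 genes, 449 to 646 of them higher, and 4 to 5 of the members. Scaling to the median called 918 genes (440 higher) and Samhd1 was lost at 0.60; keeping dim probes called 717 (358 higher) of 34797 and Samhd1 was lost at 0.62. Apobec3 was called at 0.27 with the deposited table, 0.32 with all kept probes averaged and 0.25 with trended and robust moderation. With the replicate block 374 genes (193 higher) and 2 members were called, with Rsad2 at 2.74 (adjusted p = 0.0631) and Samhd1 at 0.63 (adjusted p = 0.0614) lost. The same 6 arrays without the block gave 968 genes, with Rsad2 (adjusted p = 0.0128) and Samhd1 (adjusted p = 0.0337) called. Whether the numbers pair the samples is not known. Same-numbered arrays had correlations of deviations of 0.12, 0.07 and -0.03. WT replicates 1 and 2 correlated best with their own number and WT replicate 3 with Lck-off replicate 2. Xist RNA was low on WT replicate 1 (-5.70) and Lck-off replicate 1 (-5.52) and on no other array. The WT numbers are those of the sample titles, and the deposited files number the WT arrays otherwise, so the numbering is in doubt. Slide row 1 alone, with 3 arrays, called 105 genes (85 higher) and 1 member, with Bst2 at 1.95, Rsad2 at 2.62 and Samhd1 at 0.65 no longer called. Slide row 2 alone, with 4 arrays, called 0 genes (0 higher) and 0 members by limma, although 2711 genes and 6 members had an unadjusted p under 0.05; Bst2 was at 1.63, Isg20 at 2.20, Rsad2 at 3.04 and Samhd1 at 0.55. The row fits use fewer arrays, and keeping dim probes tests more genes. With dim probes kept, the unadjusted p of Samhd1 by limma was 0.00131, against 0.000409 without them. The cause of the changes was not tested for any of these fits. Signal over background limits Ifitm1 and Ifitm2.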

Other observations

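The gap by which WT replicate 3 stood above WT replicates 1 and 2 was at least 2 on the log2 scale for 8 of 16054 genes, listed after their values were seen. Syt10 (5.52), a synaptotagmin, and EU616813 (4.19) ranked above Ifitm3 (3.11), followed by the heat shock gene Hspa1a (2.95), Iqsec3 (2.84), Anp32a (2.63) and a pair of unnamed intergenic transcripts (2.52 each). Syt10 read -0.73, -3.05 and 3.64 in the WT samples and 3.65, 4.97, -0.88 and 0.04 in the Lck-off samples. Ifitm3 and Syt10 were both highest on Lck-off replicate 2, followed by Lck-off replicate 1 and WT replicate 3. Anp32a differed from them: it read 5.27 on WT replicate 3 and 2.56 to 2.71 on the Lck-off arrays. Of the 4 genes at least 2 lower on WT replicate 3, the haemoglobin genes Hba-a1 (-2.39) and Hba-a2 (-2.13) are markers of red blood cells.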
